A study of Mus musculus with 55 samples.

Results

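The genes described here are long noncoding RNAs that stay in the nucleus or that host small nucleolar RNAs (snoRNAs) in their introns. They were chosen by symbol from a list of 10 names, of which 6 had a row in both pre-mRNA tables, namely Gas5, Snhg6, Snhg5, Snhg12, Neat1 and Epb41l4aos. The other 4 names (Malat1, Snhg1, Snhg3 and Snhg8) were not analysed here. The tables held 9911 genes for CCNA-GFP cells and 10237 genes for CTCF-AID cells, and 9574 genes were in both.

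The study asked how mouse embryonic stem (ES) cells reactivate transcription as they leave mitosis, and what the loss of the DNA-binding protein CTCF changes. Both lines derive from E14Tg2a cells of strain 129/Ola and were grown in serum and LIF. CCNA-GFP cells carry a cyclin A reporter of the cell cycle, and CTCF-AID cells, here the single clone #EN52.9.1, carry CTCF fused to a degron that auxin (IAA) triggers. Mitotic cells of every group had been through RO-3306, a CDK1 inhibitor, at 10 µM for 4 h and nocodazole at 50 ng/ml for 4 h before they were shaken off.

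CCNA-GFP cells received no IAA and gave 19 libraries. Asynchronous and mitotic cells had 3 libraries each, the times 20, 30, 40, 60, 90 and 120 min from release had 2 each, and 50 min had 1, so its value carries no error. CTCF-AID cells without IAA (−IAA) gave 18 libraries, 3 of asynchronous cells, 3 of mitotic cells and 2 for each release time (20, 40, 50, 60, 90 and 120 min). CTCF-AID cells with IAA (+IAA) gave another 18 of the same layout, with 0.5 mM IAA added 2 h before release and kept on afterwards. Asynchronous +IAA cells had no release and were given IAA alongside for 4 h. Replicate numbers stand for separate release experiments. Comparisons with mitosis were fitted with the mean level of each replicate taken out. Their p-values measure the spread that is left, pooled over all libraries of a line. Comparisons of +IAA with −IAA were fitted without this step unless a replicate block is named. The IAA-triggered degron removes CTCF protein, so Ctcf RNA does not check the depletion. Ctcf pre-mRNA differed between the arms by log2 fold changes of −0.00 to 0.24, and none of these was called by limma.

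Long noncoding RNA genes of this kind are transcribed and often spliced like protein-coding genes. In a snoRNA host gene the exons commonly leave an RNA that is unstable in the cytoplasm, while the introns release snoRNAs. Box C/D snoRNAs guide ribose methylation of ribosomal and spliceosomal RNA, and box H/ACA snoRNAs guide pseudouridylation. Many host genes, Gas5 among them, belong with ribosomal protein genes to the terminal oligopyrimidine class, whose transcripts start with a run of pyrimidines. Neat1 differs in kind: its RNA is the scaffold of paraspeckles, nuclear bodies that hold RNA-binding proteins.

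Values are TPM, a transcript abundance scaled by length and library, of the pre-mRNA isoform, which spans a gene from end to end with its introns. Being scaled by length, levels of different genes can be set side by side. In the annotation used here (GENCODE vM21 on GRCm38), Gas5 lay on the + strand at chr1:161034422-161038539, Snhg6 on the − strand at chr1:9941959-9944118, Snhg5 on the − strand at chr9:88521050-88522929, Snhg12 on the + strand at chr4:132308623-132311024 and Neat1 on the − strand at chr19:5824708-5845478. Neat1 was the longest with 20771 bp, and its longest transcript was a single exon over 100% of the gene, so its pre-mRNA and its unspliced mature form are the same sequence. The other spans were 4118 bp for Gas5, 2402 bp for Snhg12, 2160 bp for Snhg6, 1880 bp for Snhg5 and 1095 bp for Epb41l4aos. Exons of the annotated transcripts together covered 91.3% of the span of Gas5, 92.0% of Snhg5 and 100% of Snhg12. They covered 53.1% of Snhg6 and 39.3% of Epb41l4aos. Little or no sequence of Gas5, Snhg5 and Snhg12 was thus outside every annotated exon. How well precursor and spliced RNA were told apart was not tested.

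SnoRNA sequence made up 19.6% of the span of Snhg12, 16.3% of Gas5, 12.1% of Epb41l4aos, 7.66% of Snhg5 and 4.03% of Snhg6. How much of a TPM value came from snoRNAs rather than from precursor was not tested. The box C/D snoRNAs below are shown because they are the products that define these host genes. Each was read 5′ to 3′ from GRCm38 on the strand of its host, and capitals mark the box C core TGATGA and the box D motif CTGA where these letters were found. Snord47, Snord78 and Snord80 lie in Gas5, Snord50a and Snord50b in Snhg5, Snord87 in Snhg6 and Snord99 in Snhg12.
Snord47: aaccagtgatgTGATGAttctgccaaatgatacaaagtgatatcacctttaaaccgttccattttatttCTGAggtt
Snord78: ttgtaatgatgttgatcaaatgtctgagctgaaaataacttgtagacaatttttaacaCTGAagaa
Snord80: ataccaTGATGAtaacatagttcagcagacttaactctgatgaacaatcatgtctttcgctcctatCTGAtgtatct
Snord50a: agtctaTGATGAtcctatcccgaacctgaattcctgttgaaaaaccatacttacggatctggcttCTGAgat
Snord50b: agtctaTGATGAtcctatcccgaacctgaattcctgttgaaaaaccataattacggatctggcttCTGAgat
Snord87: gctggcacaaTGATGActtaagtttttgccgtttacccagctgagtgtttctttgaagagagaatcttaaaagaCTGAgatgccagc
Snord99: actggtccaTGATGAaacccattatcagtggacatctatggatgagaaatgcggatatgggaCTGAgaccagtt
Snord50a and Snord50b were 72 bases long each and differed at 1 base (C50A, counted from the 5′ end of Snord50a). Snhg12 also carried the H/ACA snoRNAs Snora16a, Snora44 and Snora61. TGATGA followed by CTGA occurred in 24.0% of the 1507 snoRNAs annotated.

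Promoters from RefSeq on GRCm38.p6, 250 bases before to 50 bases after a start, were given for 3 of the 6 genes. They are printed because a C at the start followed by pyrimidines defines the terminal oligopyrimidine class. A TATA sequence is no mark of that class and was searched as a general promoter element. Capitals mark TATAAA or TATATA (searched on both strands) and a pyrimidine tract, defined as a C followed by at least 4 pyrimidines within 20 bases of the start. Gas5 has a second RefSeq start with neither in its window, which is not printed.
Gas5 (chr1:161034916-161035215, + strand): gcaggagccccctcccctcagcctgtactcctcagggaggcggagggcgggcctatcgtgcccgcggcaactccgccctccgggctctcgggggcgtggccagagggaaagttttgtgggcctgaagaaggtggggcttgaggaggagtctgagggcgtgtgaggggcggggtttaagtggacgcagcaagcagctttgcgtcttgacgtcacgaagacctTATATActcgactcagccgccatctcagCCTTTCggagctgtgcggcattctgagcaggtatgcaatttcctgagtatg
Snhg5 (chr9:88522848-88523147, − strand): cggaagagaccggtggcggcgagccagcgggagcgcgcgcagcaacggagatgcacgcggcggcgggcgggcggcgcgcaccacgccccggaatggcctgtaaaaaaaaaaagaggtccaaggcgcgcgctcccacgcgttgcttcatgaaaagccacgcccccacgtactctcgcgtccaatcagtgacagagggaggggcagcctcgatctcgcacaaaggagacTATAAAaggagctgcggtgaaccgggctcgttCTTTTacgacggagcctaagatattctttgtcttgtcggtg
Snhg12 (chr4:132308428-132308727, + strand): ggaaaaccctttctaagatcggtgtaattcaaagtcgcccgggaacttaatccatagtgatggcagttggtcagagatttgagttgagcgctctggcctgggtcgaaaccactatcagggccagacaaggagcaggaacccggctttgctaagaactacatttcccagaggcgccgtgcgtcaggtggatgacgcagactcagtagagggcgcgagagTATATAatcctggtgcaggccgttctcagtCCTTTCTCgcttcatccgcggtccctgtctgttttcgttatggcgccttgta
The TATA match began 29 bases before the start in Gas5, 23 in Snhg5 and 32 in Snhg12. The tract was 6 bases long in Gas5, 5 in Snhg5 and 8 in Snhg12. It began 1 base before the annotated start in Gas5 and 2 before it in Snhg12, but 9 bases after it in Snhg5, so the annotated Snhg5 transcript does not begin with it. Of 32851 promoters of the same length, 13.6% held TATAAA, 5.67% held TATATA, 45.9% held such a tract, and 7.78% held a TATA match of either kind together with a tract. A match describes the letters and is not a mapped site.

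Listed TPM per library summed to 13747–42576 in CCNA-GFP and to 17702–43370 in CTCF-AID. The lowest sums were those of a mitotic and a 20 min library and the highest those of a 60 min and a 50 min library, respectively. The median gene rose with these sums, and by 50–60 min its log2 fold change against mitosis was 0.66 in CCNA-GFP, 0.62 in −IAA and 0.63 in +IAA. Scaling every library to the same sum moved the median gene's change from mitosis by −0.67 to −0.02, and in CCNA-GFP at 50–60 min it left 35.7% of all genes called higher and 36.6% lower, in place of 84.7% and 0.787%. Member changes are therefore also given relative to the median gene. Fold changes were computed on log2(TPM + 1), which understates the change of low genes. Gas5, Snhg6, Neat1 and Epb41l4aos were high genes, at percentiles 93.2, 97.0, 95.7 and 99.6 of mean TPM in CCNA-GFP. In CTCF-AID they were at 95.4, 98.2, 89.6 and 98.9. How much of a gap to the median gene, or of a percentile of change, goes with level was not tested. Of 8 ES cell markers 7 were listed in every arm, with summed TPM of 28.2–108 in CCNA-GFP, 40.3–121 in −IAA and 38.0–108 in +IAA. Of 12 markers of other cells 3 were listed in CCNA-GFP (summed TPM 0.225–3.36) and 6 in CTCF-AID (0.745–12.3).

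All members but Neat1 host snoRNAs. Of these hosts, Gas5 and Snhg6 were above mitosis from 40 min on in all 3 arms on the scale of the files. Their level at 50–60 min was not called different from the asynchronous one on that scale, but with libraries scaled to the same sum it was lower, called for Gas5 in all 3 arms and for Snhg6 in CCNA-GFP and −IAA. Neat1 was above mitosis at 50–60 min, by less than the median gene, and below mitosis when libraries were scaled to the same sum. In asynchronous cells its difference from mitosis was negative on both scales, but on the scale of the files it was not called in −IAA, and the calls in CCNA-GFP and +IAA did not hold under several other settings. Epb41l4aos was above mitosis in CCNA-GFP, was not called in −IAA and was below mitosis in +IAA at 90–120 min and in asynchronous cells, and scaled to the same sum it was below mitosis at 50–60 min in all 3 arms. Its mean was lower with IAA at every stage. Snhg5 and Snhg12 were listed at 0 TPM in most libraries.

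**Figure D1:**
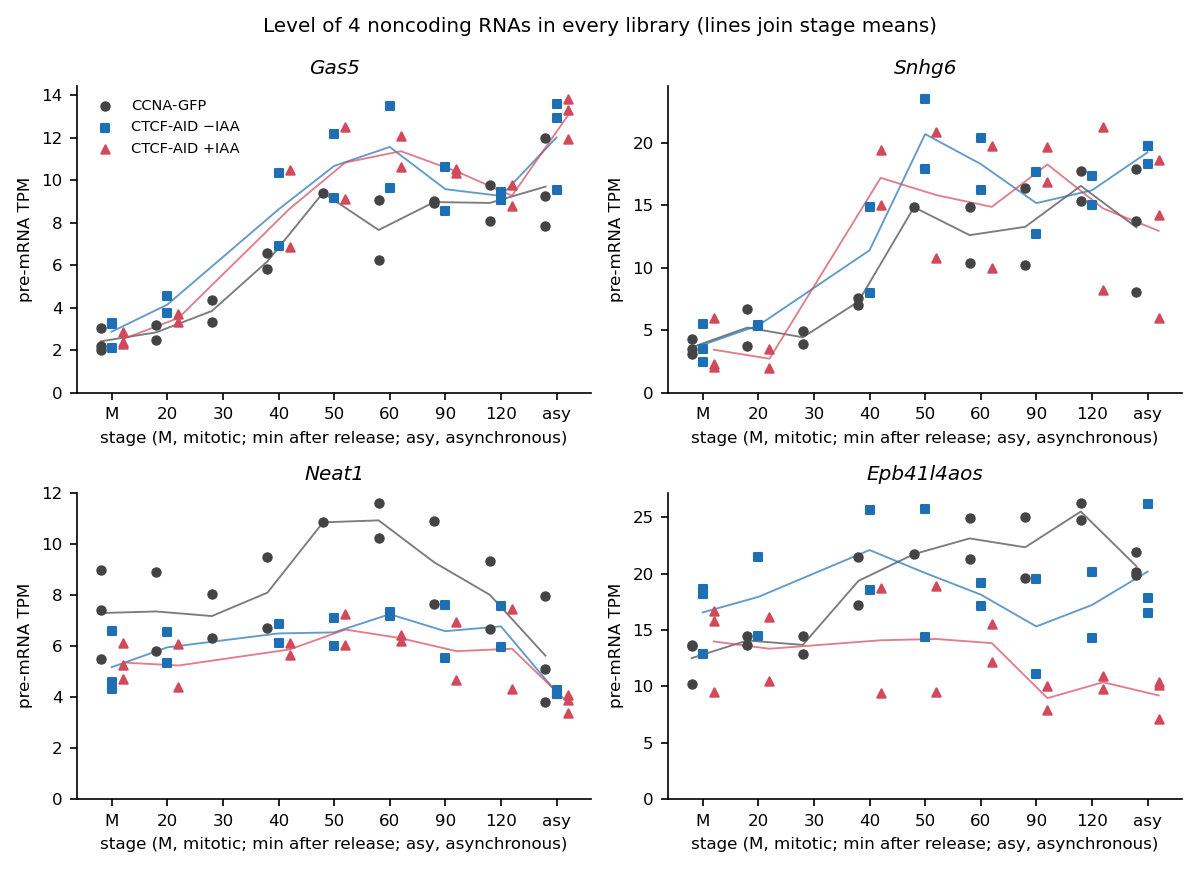
Pre-mRNA TPM (vertical axis, linear) of Gas5, Snhg6, Neat1 and Epb41l4aos by stage (horizontal axis) in CCNA-GFP, CTCF-AID −IAA and CTCF-AID +IAA; points are libraries and lines join stage means. Gas5 went from 2.02–3.27 TPM in mitotic libraries to 7.83–13.8 TPM in asynchronous ones.

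Gas5 pre-mRNA in CCNA-GFP was 2.02, 3.02 and 2.19 TPM in the 3 mitotic libraries and 7.83, 9.26 and 12.0 TPM in the 3 asynchronous ones. After release it was 3.18 and 2.50 TPM at 20 min, 4.36 and 3.33 at 30 min, 6.55 and 5.81 at 40 min, 9.41 at 50 min, 9.06 and 6.26 at 60 min, 9.01 and 8.94 at 90 min, and 8.07 and 9.79 at 120 min. Each library from 40 min on was above each mitotic library, while the 20 min values overlapped the mitotic ones. The mean was 2.41 ± 0.536 TPM (SD, n = 3) in mitosis, 6.18 ± 0.526 (n = 2) at 40 min and 9.70 ± 2.12 (n = 3) in asynchronous cells, that is 2.56 and 4.02 times the mitotic mean.

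On the log2(TPM + 1) scale Gas5 was above mitosis by 1.09 ± 0.183 (SE) at 40 min, with an adjusted p of 6.54e-05 by limma. The difference was 1.47 ± 0.165 at 50–60 min, 1.55 ± 0.149 at 90–120 min and 1.64 ± 0.159 in asynchronous cells. Adjusted p (limma) was 6.2e-08, 7.4e-09 and 3.53e-07 for these. At 20–30 min it was 0.34 ± 0.149 (adjusted p 0.428, limma), and without replicate 2 it was 0.55 and passed the test. In bulk libraries a change in the number of cells that transcribe a gene and a change in RNA per cell cannot be told apart.

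In CTCF-AID −IAA, mitotic Gas5 was 3.22, 3.27 and 2.12 TPM. It was 4.56 and 3.73 TPM at 20 min, 10.4 and 6.90 at 40 min, 12.2 and 9.15 at 50 min, 13.5 and 9.64 at 60 min, 10.6 and 8.55 at 90 min, and 9.47 and 9.06 at 120 min. Asynchronous Gas5 was 12.9, 9.54 and 13.6 TPM. All post-mitotic libraries of this arm lay above the mitotic ones. The +IAA libraries ran close to these, with 2.30, 2.87 and 2.39 TPM in mitosis and 3.70 and 3.32 at 20 min. They reached 10.5 and 6.85 TPM at 40 min, 12.5 and 9.14 at 50 min, 12.1 and 10.6 at 60 min, 10.5 and 10.3 at 90 min, 8.78 and 9.77 at 120 min, and 11.9, 13.3 and 13.8 in asynchronous cells.

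Gas5 differed from mitosis by log2 fold changes of 1.27 at 40 min, 1.62 at 50–60 min, 1.41 at 90–120 min and 1.75 in asynchronous −IAA cells (SE 0.137 to 0.166), all called by limma. The +IAA arm gave 1.40, 1.75, 1.59 and 2.00 for the same stages, also called. Relative to the median gene Gas5 was higher by 0.81 in CCNA-GFP, 1.00 in −IAA and 1.12 in +IAA at 50–60 min, and by 1.32, 1.63 and 1.85 in asynchronous cells. In asynchronous cells its difference lay at the 99.7th percentile of all genes in CCNA-GFP and at the 99.9th in both CTCF-AID arms. These gaps and percentiles are on the log2(TPM + 1) scale, which shrinks the changes of genes lower than Gas5. With every library scaled to the same sum Gas5 was still above mitosis, by 0.51, 0.81 and 0.93 at 50–60 min. From 50–60 min to 90–120 min it changed by 0.08 in CCNA-GFP, −0.21 in −IAA and −0.15 in +IAA, none called. Its 50–60 min level differed from the asynchronous one by −0.17, −0.13 and −0.25, none called, although in CCNA-GFP without replicate 1 the difference was −0.41 and passed. Scaled to the same sum these differences were −0.70, −0.83 and −0.94, all called by limma (adjusted p 0.000205, 3.79e-06 and 6.72e-07), and the changes to 90–120 min were 0.08, 0.12 and 0.18, none called. By mean, Gas5 was highest in asynchronous cells in all 3 arms, and the stage next to it in that order overlapped it in its libraries.

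Snhg6 is the host of Snord87. In CCNA-GFP it was 4.29, 3.45 and 3.12 TPM in mitosis, 6.71 and 3.71 at 20 min, 3.91 and 4.95 at 30 min, 7.55 and 7.03 at 40 min, 14.9 at 50 min, and 14.9 and 10.4 at 60 min. Later it was 10.2 and 16.4 TPM at 90 min, 15.3 and 17.8 at 120 min, and 8.06, 13.8 and 17.9 in asynchronous cells. All libraries from 40 min on exceeded the mitotic ones. The mean rose from 3.62 ± 0.60 TPM (SD, n = 3) in mitosis to 16.6 ± 1.74 TPM (n = 2) at 120 min.

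For Snhg6 in CCNA-GFP the log2 fold change from mitosis was 0.97 ± 0.238 (SE) at 40 min, 1.61 ± 0.215 at 50–60 min, 1.79 ± 0.195 at 90–120 min and 1.57 ± 0.207 in asynchronous cells. Adjusted p (limma) was 0.00225, 7.12e-07, 3.68e-08 and 7e-06. At 20–30 min it was 0.33 ± 0.195 (adjusted p 0.631, limma), and without replicate 2 it was 0.57 and passed. Relative to the median gene Snhg6 was higher by 0.95 at 50–60 min and by 1.24 in asynchronous cells, at percentiles 95.3 and 99.7 of all genes. Scaled to the same sum its difference from mitosis at 50–60 min was 0.57 (adjusted p 0.0295, limma).

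In −IAA cells Snhg6 was 3.50, 5.52 and 2.46 TPM in mitosis, 5.33 and 5.44 at 20 min, 14.8 and 7.97 at 40 min, 23.5 and 17.9 at 50 min, and 20.4 and 16.2 at 60 min. It was 17.7 and 12.7 TPM at 90 min, 15.0 and 17.4 at 120 min, and 19.7, 19.7 and 18.3 in asynchronous cells. In +IAA cells it was 2.04, 6.01 and 2.25 TPM in mitosis, 1.95 and 3.48 at 20 min, 19.4 and 15.0 at 40 min, 20.9 and 10.7 at 50 min, 19.8 and 10.0 at 60 min, 19.7 and 16.9 at 90 min, 8.22 and 21.3 at 120 min, and 14.3, 18.6 and 5.99 in asynchronous cells. Both 20 min +IAA libraries were below their mitotic pairs, and the lowest asynchronous +IAA library, replicate 3, lay within the mitotic range.

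From mitosis Snhg6 rose in −IAA by 1.15 ± 0.352 (SE) at 40 min, 2.09 ± 0.291 at 50–60 min, 1.80 ± 0.291 at 90–120 min and 2.12 ± 0.310 in asynchronous cells on the log2 scale. In +IAA the changes were 1.94, 1.89, 1.98 and 1.64, all called by limma. At 50–60 min Snhg6 was above the median gene by 1.48 in −IAA and 1.26 in +IAA, and scaled to the same sum its change was 1.25 and 1.05. The 40 min call was lost when libraries were scaled to the same sum, in CCNA-GFP (0.47) and in −IAA (0.61), and in −IAA without replicate 1 (0.47). Levels of Snhg6 at 50–60 min and in asynchronous cells differed by 0.04 in CCNA-GFP, −0.02 in −IAA and 0.25 in +IAA, with 95% intervals of −0.41 to 0.49, −0.62 to 0.58 and −0.35 to 0.85. In +IAA without replicate 2 this difference was 0.71 and was called. Scaled to the same sum it was −0.51, −0.75 and −0.45, called in CCNA-GFP and −IAA.

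Neat1, the paraspeckle scaffold, moved within a narrower range. In CCNA-GFP it was 5.47, 8.97 and 7.42 TPM in mitosis, 5.80 and 8.90 at 20 min, 6.29 and 8.04 at 30 min, 6.68 and 9.49 at 40 min, 10.8 at 50 min, and 10.2 and 11.6 at 60 min. It was 7.64 and 10.9 TPM at 90 min, 6.68 and 9.32 at 120 min, and 3.80, 5.09 and 7.96 in asynchronous cells. The 3 libraries at 50 and 60 min were above all others except replicate 3 at 90 min, whose value lay between theirs. Asynchronous and mitotic libraries overlapped.

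In −IAA cells Neat1 was 4.33, 6.59 and 4.58 TPM in mitosis, 5.33 and 6.56 at 20 min, 6.13 and 6.85 at 40 min, 7.08 and 5.98 at 50 min, 7.15 and 7.33 at 60 min, 5.54 and 7.61 at 90 min, 5.95 and 7.57 at 120 min, and 4.13, 4.28 and 4.13 in asynchronous cells. In +IAA cells it was 5.26, 6.10 and 4.68 TPM in mitosis, 4.40 and 6.06 at 20 min, 5.62 and 6.10 at 40 min, 7.25 and 6.03 at 50 min, 6.17 and 6.43 at 60 min, 4.65 and 6.94 at 90 min, 4.32 and 7.46 at 120 min, and 3.90, 4.09 and 3.37 in asynchronous cells. Asynchronous values were below every other value of the same arm.

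Against mitosis Neat1 was higher at 50–60 min by log2 fold changes of 0.49 ± 0.138 (SE) in CCNA-GFP, 0.39 ± 0.120 in −IAA and 0.26 ± 0.120 in +IAA, but with libraries scaled to the same sum these were −0.59, −0.43 and −0.58. Adjusted p (limma) was 0.00262, 0.00407 and 0.0464. The median gene rose more, so that Neat1 lay below it by 0.17, 0.23 and 0.37. At 90–120 min Neat1 was at 0.30, 0.34 and 0.11, the last not called, and with the same sum at −0.77, −0.17 and −0.43. At 50–60 min the CCNA-GFP call was lost without the replicate block (0.54), leaving out replicate 1 ended the −IAA call (0.23), and leaving out any 1 replicate ended the +IAA call (0.19 to 0.32).

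Asynchronous Neat1 was below mitosis by log2 fold changes of −0.35 ± 0.132 (SE) in CCNA-GFP and −0.40 ± 0.128 in +IAA, with adjusted p (limma) of 0.0234 and 0.0125. In −IAA the value was −0.23 ± 0.128 (adjusted p 0.151, limma). Relative to the median gene the differences were −0.68, −0.55 and −0.35, at percentiles 0.989, 1.73 and 5.32 of all genes. With libraries scaled to the same sum the 3 arms gave −0.90, −0.62 and −0.40. The calls did not hold without the replicate block or with each library's own factor removed (−0.14 in CCNA-GFP, −0.20 in +IAA), nor in CCNA-GFP without replicate 1 (−0.31) or 2 (−0.17), nor in +IAA without replicate 2 (−0.37). Between 50–60 min and asynchronous cells Neat1 was higher by 0.84 ± 0.138, 0.63 ± 0.120 and 0.66 ± 0.120 in CCNA-GFP, −IAA and +IAA, all called. Scaling to the same sum took the CTCF-AID differences to −0.02 and 0.04.

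Epb41l4aos lies on the + strand of chromosome 18, 341 bp from Epb41l4a on the opposite strand, and holds 1 annotated snoRNA. It had the highest mean of the members over the CCNA-GFP libraries. In CCNA-GFP it was 13.6, 13.7 and 10.2 TPM in mitosis, 14.5 and 13.7 at 20 min, 14.5 and 12.9 at 30 min, 21.5 and 17.2 at 40 min, 21.7 at 50 min, and 24.9 and 21.3 at 60 min. It was 25.1 and 19.6 TPM at 90 min, 26.2 and 24.8 at 120 min, and 20.2, 22.0 and 19.9 in asynchronous cells. Libraries from 40 min on did not overlap the mitotic ones. Against mitosis it was higher by log2 fold changes of 0.52 ± 0.126 (SE) at 40 min, 0.84 ± 0.113 at 50–60 min and 0.86 ± 0.103 at 90–120 min, but scaled to the same sum by −0.05, −0.29 and −0.27. Adjusted p (limma) was 0.00186, 8.13e-07 and 1.28e-07. The asynchronous difference was 0.69 ± 0.109 (adjusted p 3.39e-05, limma) and lay above the median gene by 0.36. It was 0.13 and not called with the same sum. Without replicate 1 the 40 min difference was 0.37 and was not called.

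In −IAA cells Epb41l4aos was 18.6, 12.9 and 18.2 TPM in mitosis, 21.4 and 14.4 at 20 min, 25.7 and 18.5 at 40 min, 25.7 and 14.4 at 50 min, 19.2 and 17.1 at 60 min, 19.5 and 11.1 at 90 min, 20.1 and 14.3 at 120 min, and 26.2, 16.5 and 17.9 in asynchronous cells. The stages overlapped throughout, and differences from mitosis were −0.03 to 0.27 on the log2 scale up to 50–60 min, −0.13 at 90–120 min and 0.26 in asynchronous cells, none called. Scaled to the same sum they were −0.34 at 40 min (not called), −0.80 at 50–60 min and −0.69 at 90–120 min (adjusted p 8.23e-05 and 0.000569, limma) and 0.08 in asynchronous cells (not called). In +IAA cells it was 15.8, 16.6 and 9.46 TPM in mitosis, 16.2 and 10.5 at 20 min, 18.7 and 9.45 at 40 min, 18.9 and 9.53 at 50 min, 15.5 and 12.2 at 60 min, 10.0 and 7.86 at 90 min, 10.9 and 9.79 at 120 min, and 10.1, 10.4 and 7.10 in asynchronous cells. Here Epb41l4aos fell from mitosis by 0.54 at 90–120 min and by 0.53 in asynchronous cells, with adjusted p (limma) of 0.00359 and 0.0136 and percentiles of 0.821 and 0.791. Without replicate 1 these were −0.47 and −0.50 and were not called, and neither was called without the replicate block (−0.46 and −0.53). Scaled to the same sum Epb41l4aos in +IAA was also lower at 40 min (−0.72) and 50–60 min (−0.996), where it was at −0.15 and −0.08 as listed, and at 90–120 min it was at −1.12.

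**Figure D2:**
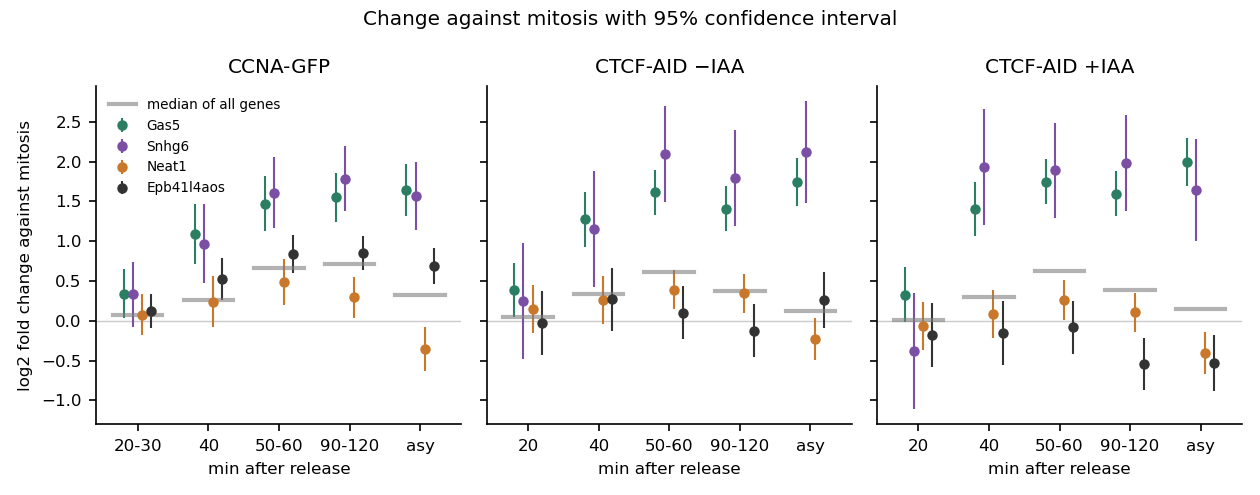
Log2 fold change of TPM + 1 against mitosis (vertical axis) for Gas5, Snhg6, Neat1 and Epb41l4aos by stage (horizontal axis) in the 3 arms, with 95% confidence intervals; the grey bar is the median of all genes. At 50–60 min Gas5 and Snhg6 lay at 1.47 to 2.09 and Neat1 at 0.26 to 0.49, which became −0.59 to −0.43 when libraries were scaled to the same sum.

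Snhg5 and Snhg12 were each listed at 0 TPM in more libraries than almost any other gene. Snhg5 was above 0 in 8 of 19 CCNA-GFP, 6 of 18 −IAA and 5 of 18 +IAA libraries, and Snhg12 in 4, 3 and 5. A gene at 0 in as many CCNA-GFP libraries as Snhg5 or more was 1 of 9, and for Snhg12 1 of 2, while 98.5% of genes were never at 0. The mean of Snhg12 lay at the 0.464th percentile of all genes in CCNA-GFP and at the 3.83rd in CTCF-AID. A listed 0 may be an estimate that failed, so no fold change is given for these genes against a group at 0.

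In CCNA-GFP, Snhg5 was 0.612 TPM in replicate 3 at 30 min, 1.16 in replicate 2 at 40 min and 1.85 at 50 min. It was 0.913 and 2.30 TPM at 60 min, 2.16 in replicate 1 at 90 min, 4.91 in replicate 2 at 120 min and 5.12 in asynchronous replicate 3. It was listed at 0 in the mitotic and the 20 min libraries. In −IAA it was 0.522 TPM in mitotic replicate 1, 0.680 in replicate 2 at 20 min, 1.82 in replicate 3 at 50 min, 2.38 and 1.93 in replicate 1 at 60 and 90 min, and 0.894 in replicate 2 at 120 min. In +IAA it was 0.657 TPM in replicate 1 at 20 min, 2.07 and 0.619 at 40 min, 0.771 in replicate 3 at 50 min and 1.25 in asynchronous replicate 2. The 60 min libraries of CCNA-GFP and the 40 min ones of +IAA were the stages with 2 libraries both above 0.

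Snhg12 in CCNA-GFP was 1.68 and 0.926 TPM at 40 min, 0.152 in replicate 1 at 60 min and 1.91 in replicate 2 at 120 min. In −IAA it was 0.698 and 0.687 TPM at 40 min and 4.37 in replicate 3 at 50 min. In +IAA it was 1.33 TPM in mitotic replicate 3, 0.701 in replicate 1 at 20 min, 1.22 in replicate 1 at 50 min, 3.22 in replicate 3 at 90 min and 2.80 in asynchronous replicate 3. Both 40 min libraries were above 0 in CCNA-GFP and in −IAA, and both were at 0 in +IAA.

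**Figure D3:**
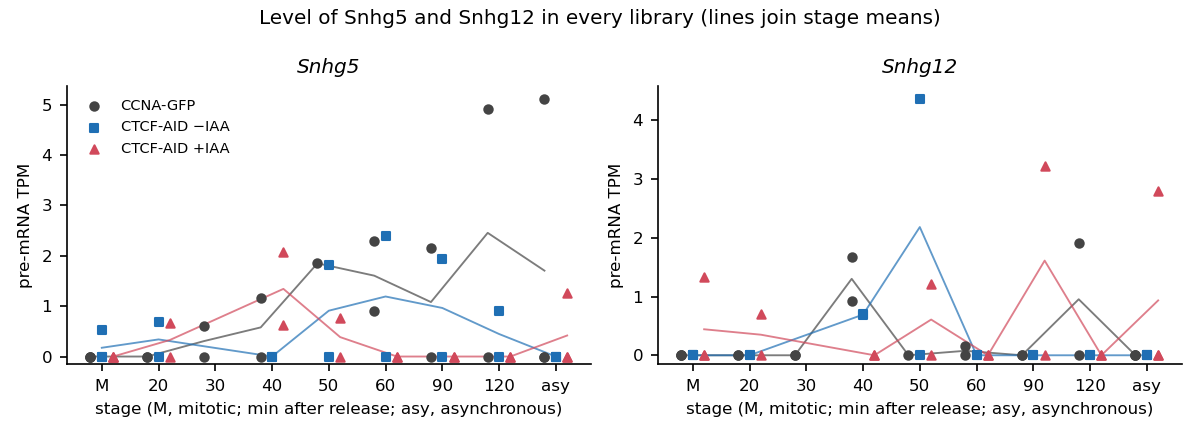
Pre-mRNA TPM (vertical axis, linear) of Snhg5 and Snhg12 by stage (horizontal axis) in the 3 arms; points are libraries and lines join stage means. Most points lie at 0, and the highest are 5.12 TPM for Snhg5 and 4.37 TPM for Snhg12, each from a single library of its stage.

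Counted over the 6 members, limma called 4 higher than mitosis at 40 min in CCNA-GFP, where 49.3% of all genes were called higher. It called 5 at 50–60 min (84.7% of all genes) and 5 at 90–120 min (91.8%), and in asynchronous cells 3 higher (70.4%) and 1 lower (1.97%). Snhg12 was among those called at 40 min, and Snhg5 at 50–60 and 90–120 min, against mitotic libraries at 0. With the same sum Gas5 and Snhg6 were called higher and Neat1 and Epb41l4aos lower at 50–60 min in all 3 arms. So they were at 90–120 min in CCNA-GFP (34.9% of all genes then higher and 27.9% lower) and in +IAA (38.6% and 30.7%). In −IAA the counts on the scale of the files were 2 at 40 min (63.3% of all genes), 3 at 50–60 min (84.5%), 3 at 90–120 min (77%) and 2 in asynchronous cells (34.3%). In +IAA they were 3 at 40 min (58.7%), of which Snhg5 was called against mitotic libraries at 0, and 3 at 50–60 min (82.4%). At 90–120 min 2 members were above mitosis there (75.7%) and Epb41l4aos was below (5.15%), and in asynchronous cells 2 were above (40.9%) while Neat1 and Epb41l4aos were below (5.89%). No member was called by limma at 20–30 min in CCNA-GFP (0.0202% of all genes; 1 member at an unadjusted p under 0.05) or at 20 min in −IAA (0%; 1 member) or +IAA (0%; 0 members). From 50–60 min to 90–120 min limma called none in CCNA-GFP (45.1% of all genes, either direction) or −IAA (69.7%), with 0 at an unadjusted p under 0.05 in both. In +IAA it called Epb41l4aos lower, by −0.46 (56.7% of all genes lower). With the same sum this difference was −0.12 and not called, and it was not called without the replicate block. Against asynchronous cells Neat1 was called higher at 50–60 min in all 3 arms (59.5%, 75.3% and 73.3% of all genes) and Epb41l4aos in +IAA, by 0.45, which became −0.24 with the same sum, as Neat1 became −0.02 in −IAA and 0.04 in +IAA.

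Whether IAA changed the members was asked by comparing +IAA with −IAA at the same stage. Limma without a replicate block called none of the 6 members at any of the 5 stages. This fit leaves out that replicate numbers pair the arms, and in the windows it counts libraries of the same release as separate. The share of all genes called, in either direction, was 0% in mitosis and at 20–40 min, 0.83% at 50–60 min, 1.48% at 90–120 min and 1.01% in asynchronous cells. At an unadjusted p under 0.05 there were 0, 1, 0, 1 and 1 members. Gas5 differed by −0.13 in mitosis, −0.09 at 20–40 min, 0.00 at 50–60 min, 0.06 at 90–120 min and 0.12 in asynchronous cells. The widest of its 95% intervals ran from −0.49 to 0.23 and from −0.24 to 0.48, so a log2 difference of 0.5 lay outside them.

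Snhg6 was less well determined. Its differences were −0.18, −0.11, −0.39, 0.00 and −0.66 on the log2 scale in the same order of stages, and the asynchronous 95% interval ran from −1.42 to 0.10. The 20–40 min value averages opposite stages. The +IAA mean was 0.504 times the −IAA mean at 20 min (lower in 2 of 2 pairs) and 1.51 times at 40 min (higher in 2 of 2). Snhg6 was lower with IAA in 12 of 18 pairs of the same stage and replicate, a number that 35.8% of genes reached. Neat1 differed by 0.05, −0.14, −0.08, −0.18 and −0.12, with intervals between −0.48 and 0.40, and was lower with IAA in 14 of 18 pairs of the same stage and replicate, as were at least as many pairs for 15.7% of genes.

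Epb41l4aos was lower with IAA in 17 of 18 such pairs, a number that 2.72% of genes reached, the exception being mitotic replicate 2. Its mean TPM was lower with IAA by 15.6% in mitosis and 25.7% at 20 min, by 36.2%, 29.2% and 23.7% at 40, 50 and 60 min, by 41.5% and 39.8% at 90 and 120 min, and by 54.4% in asynchronous cells (20.2 ± 5.23 against 9.19 ± 1.82 TPM, SD, n = 3 each). Asynchronous values did not overlap, with 26.2, 16.5 and 17.9 TPM without IAA and 10.1, 10.4 and 7.10 TPM with it. The log2 difference was −0.25 in mitosis, −0.54 at 20–40 min, −0.43 at 50–60 min, −0.67 ± 0.251 (SE; adjusted p 0.593, limma) at 90–120 min and −1.04 ± 0.290 (adjusted p 0.125, limma) in asynchronous cells. The asynchronous difference lay at the 0.0293rd percentile of all genes.

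Replicate numbers pair the arms, and with the replicate as a block the 90–120 min and asynchronous differences of Epb41l4aos were called, with adjusted p (limma) of 0.0083 and 0.000345 and 95% intervals of −0.97 to −0.36 and −1.40 to −0.69. In that fit 1.9% and 1.53% of all genes were called lower at these stages. The IAA difference in asynchronous cells minus that in mitosis was −0.79, with a 95% interval of −1.64 to 0.05 without the block (adjusted p 1, limma) and −1.29 to −0.29 with it (adjusted p 0.289, limma), so a difference between the stages was not called. Without the block Rpl5, the gene most like Epb41l4aos in its course, differed between arms by −0.36 in asynchronous cells (adjusted p 1, limma). In that fit Epb41l4aos was not called either.

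**Figure D4:**
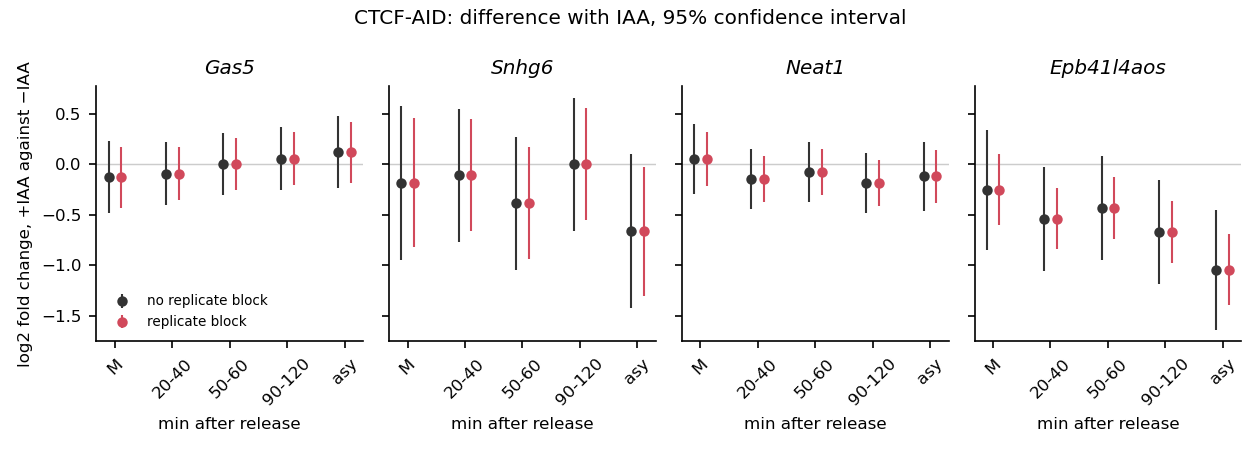
Log2 fold change of TPM + 1 with IAA against without for Gas5, Snhg6, Neat1 and Epb41l4aos at 5 stages of CTCF-AID cells, with 95% confidence intervals, fitted without and with the replicate block. Gas5 stayed between −0.13 and 0.12, and Epb41l4aos went from −0.25 in mitosis to −1.04 in asynchronous cells.

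Genes that work with these RNAs, or resemble them, were counted from fixed lists, at 50–60 min against mitosis in CCNA-GFP unless another arm is named. The median of all genes was 0.66 there, and 84.7% of genes were called higher and 0.787% lower. Counts with libraries scaled to the same sum are therefore given beside these. Other noncoding snoRNA hosts rose in 7 of 8 listed genes with a median log2 fold change of 0.80, but scaled to the same sum 1 was higher and 2 lower with a median of −0.02. Snhg15 was the highest at 1.61 ± 0.529 (SE) and Snhg18 the lowest at 0.22 ± 0.0708, which became 0.55 and −0.03, neither called. In asynchronous cells the same list had a median of −0.02 and 3 of 8 called higher, against a median of 0.33 and 70.4% called higher for all genes. With the same sum 1 was higher and 1 lower with a median of −0.10, where 24.8% of all genes were higher and 20.3% lower.

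Protein-coding hosts, among them many ribosomal protein genes, rose in 26 of 27 with a median of 1.20, and scaled to the same sum 13 were higher and 9 lower with a median of 0.20. Rps12, a protein of the small ribosomal subunit, rose by 2.38 ± 0.213 and by 1.41 with the same sum. Rpl13a was lowest at 0.27 ± 0.124 (adjusted p 0.0516, limma) and was called lower, at −0.93, with the same sum. In CTCF-AID at 50–60 min 22 of 27 rose and 1 fell in −IAA (median 0.76), and 24 rose and 1 fell in +IAA (median 0.75), against 84.5% and 82.4% of all genes higher and 4.11% and 5.26% lower. The gene that fell was Rpl23 (−0.30 and −0.24). Scaled to the same sum 6 were higher and 12 lower in −IAA (median −0.11), and 8 higher and 12 lower in +IAA (median −0.09). Of all genes 43.2% were then higher and 34.4% lower in −IAA, and 43.9% and 36.4% in +IAA.

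Proteins of snoRNPs, the particles that snoRNAs form, rose in 14 of 15 (median 0.86), or with the same sum were higher in 6 and lower in 5. Nhp2, an H/ACA core protein, rose by 1.54, and Shq1, an assembly factor, was at 0.09 and not called, or −0.59 and called with the same sum. Paraspeckle proteins rose in 13 of 13 (median 1.05), or with the same sum were higher in 5 and lower in 5. They ran from Smarca4 at 0.41, which became −0.50 with the same sum, to Rbm4 at 2.59. Neat1, which these proteins bind, was at 0.49 in the same comparison and −0.59 with the same sum. Nuclear speckle and SR splicing proteins rose in 19 of 19 (median 1.39), or with the same sum were higher in 12 and lower in 6 (median 0.30). They ran from Rbm25 at 0.43, which became −0.66, to Srsf5 at 2.16.

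Factors of nonsense-mediated decay, the pathway that degrades the spliced RNA of many snoRNA hosts, rose in 13 of 14 (median 0.84), or with the same sum were higher in 4 and lower in 6. Magoh, of the exon junction complex, was highest at 1.48, and Smg6, an endonuclease of the pathway, was at 0.00 and not called, or −0.74 and called with the same sum. Other long noncoding RNAs rose in 5 of 13 and fell in 2 (median 0.12), or with the same sum were higher in 3 and lower in 10. Mir17hg, the host of a microRNA cluster, was highest at 1.45, and Mirg lowest at −0.58. In −IAA and +IAA cells 3 of 12 of them rose and 5 fell, with medians of −0.00 and −0.07, where 84.5% and 82.4% of all genes were called higher. With the same sum 2 were higher and 8 lower in −IAA (median −0.80), and 2 higher and 9 lower in +IAA (median −0.93), where 34.4% and 36.4% of all genes were lower. Between the IAA arms limma without the replicate block called none of 112 listed genes at any stage. At an unadjusted p under 0.05 there were 0 in mitosis, 2 at 20–40 min, 0 at 50–60 min, 1 at 90–120 min and 1 in asynchronous cells. The replicate numbers pair these arms, and counts of the listed genes with the block are not given here.

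**Figure D5:**
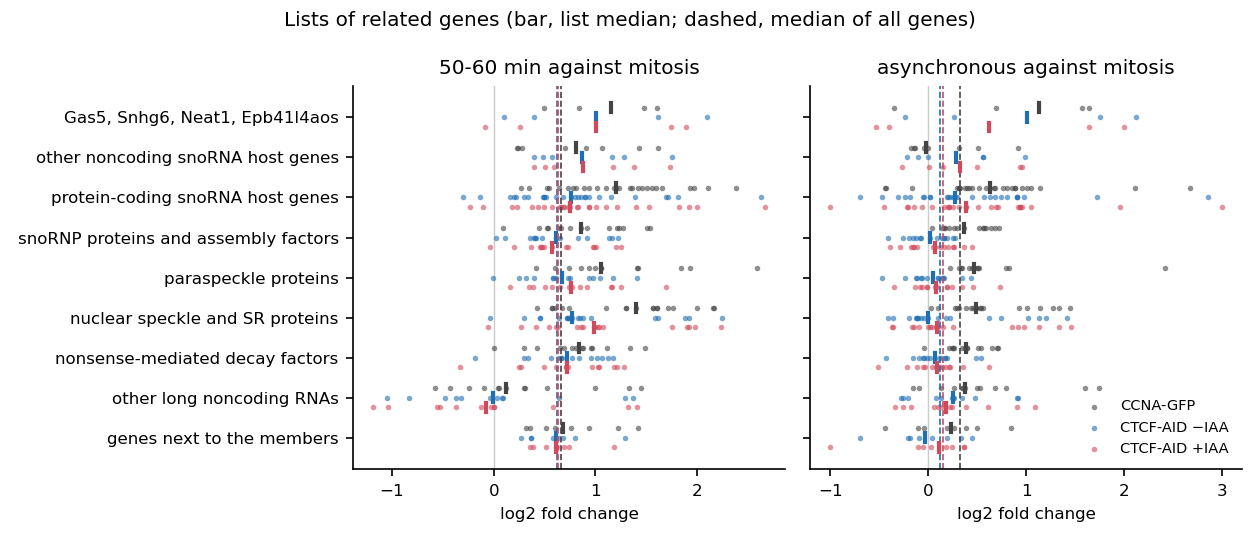
Log2 fold change of TPM + 1 against mitosis at 50–60 min and in asynchronous cells (horizontal axes) for 4 members and 8 gene lists in the 3 arms (colours); points are genes, bars are list medians and dashed lines are medians of all genes. At 50–60 min the CCNA-GFP list medians ran from 0.12 (other long noncoding RNAs) to 1.39 (speckle and SR proteins) around 0.66 for all genes, and with libraries scaled to the same sum from −0.61 to 0.30.

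The 8 listed genes next to the members were all called higher in CCNA-GFP at 50–60 min, with a median of 0.68, and with the same sum 2 were higher and 3 lower. Zbtb37, which overlaps Gas5 by 428 bp on the opposite strand, was at 0.36 ± 0.0835, or −0.31 with the same sum. Gas5 itself was at 1.47 and 0.51. Libraries were stranded, but whether the quantification used the strand is not given in the sources used here. Trnau1ap, 739 bp from Snhg12, was at 0.94 ± 0.0959, or 0.08 and not called with the same sum. Frmd8, 4224 bp from Neat1, was at 0.51 ± 0.114, or −0.41 with the same sum, close to Neat1. In asynchronous cells Frmd8 was at −0.04, not called, and Neat1 at −0.35, and with the same sum both were called lower, at −0.51 and −0.90. Snhg6 overlaps Mcmdc2 by 127 bp on the opposite strand, and Mcmdc2 and Epb41l4a were not analysed here.

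The genes whose stage means most resembled each member's were found by Pearson's r over 25 stage means, centred within each arm, among 9574 genes. These points share libraries and their scaling, so r is a description. Gas5 was most like Rps27a and Rps12 (r 0.983 each), and Snhg6 most like Rps21 (0.952) and Rps20 (0.949), all proteins of the small ribosomal subunit. Gas5 and Snhg6 correlated with each other at 0.946. Rps27a differed from mitosis by 1.55 at 50–60 min and 2.03 in asynchronous CCNA-GFP cells, and Rps21 by 2.34 and 1.87. With the same sum the values were 0.51 and 1.55 for Rps27a and 1.37 and 1.46 for Rps21.

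Epb41l4aos was most like Rpl5 (r 0.878) and Rpl32 (0.843), which encode proteins of the large subunit. Neat1 was most like Baiap2 (0.951) and Pdgfa (0.943) and less like Gas5 (0.21). Baiap2 rose by 1.38 ± 0.116 at 50–60 min and was lower than mitosis by −0.42 ± 0.111 in asynchronous CCNA-GFP cells and by −0.70 in −IAA. With the same sum Baiap2 was at 0.38 and −0.92 in CCNA-GFP. Pdgfa, a growth factor, was at 1.31 and −0.13, the second not called, and with the same sum at 0.29 and −0.62, both called. The r values of Snhg5 (at most 0.75, with Rpl27a) and Snhg12 (at most 0.491) come from courses that are mostly 0.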

How the data were processed

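Pre-mRNA was measured in 55 RNA-seq libraries of CCNA-GFP (19) and CTCF-AID cells (36). The authors sequenced ribo-depleted, stranded, paired-end libraries, aligned them to mm10 with STAR, quantified them with RSEM on Gencode vM12 extended by a full-length precursor isoform per gene, and deposited TPM of that isoform for genes that passed an expression filter (tool versions are not given in the sources used here). TPM carry no counts, so depth and counting error are unknown. In each library 100% of values were whole multiples of a step (tolerance 0.01 of a step), equal to TPM rounded at 0.01 times a library factor of 1.84 to 3.81, whose origin is not given in the sources used here. Asynchronous CTCF-AID columns have garbled headers and were matched by arm, ending and replicate number.

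Here log2(TPM + 1) of all genes of a table was fitted with limma 3.58.1 (lmFit, eBayes with trend) in R 4.3.3, with Benjamini-Hochberg adjustment over that table. Fold changes on this scale understate the change of low genes. Comparisons with mitosis had the replicate number as a block and a threshold of 0.05 on adjusted p. IAA comparisons followed the study's thresholds (adjusted p of 0.1, absolute log2 fold change of 0.2) without a block. Windows such as 50–60 min average their stages, and libraries of the same release enter a window as separate values. The study's own count test could not be used without counts. How the tables were normalised is not given in the sources used here, so the lines were not tested against each other. The replicate numbers pair the libraries: deviations of same-numbered libraries from their stage means had a correlation over 0.1 for 20 of 20 combinations of CCNA-GFP stages (median 0.49), for 8 of 8 of the IAA arms (median 0.81) and for 39 of 40 of CTCF-AID stages (median 0.50), and each number stands for 1 release experiment in the study's methods. The fit was tested on simulated data, but the outcome is not given here and no result rests on it. Alternatives were another pseudocount (0.1), a filter at a mean of 1 TPM, no trend, the block removed or added, 60 min alone, libraries scaled to the same sum or divided by their own factor, and each replicate left out.

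The members and the gene lists were chosen with earlier results of these data known. Genes named are the members, the 2 genes most like each, the highest and lowest gene of each list at 50–60 min in CCNA-GFP, Ctcf and the neighbours, of which 1 is not reported here. Rpl23, which falls outside this rule, was named after its values were seen. Positions and snoRNAs were taken from the GENCODE vM21 annotation of GRCm38 (mm10 is the same assembly), and promoters from RefSeq on GRCm38.p6. Other calculations used Python 3.11.15, numpy 2.4.6, pandas 2.3.3 and matplotlib 3.10.9.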

Additional observations from a re-analysis of the deposited data

Results flagged for a closer look

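Some members moved in opposite directions from mitosis in different arms, in every pair of the same replicate. Differences between the lines were not tested, since how their tables were normalised is not given in the sources used here. Epb41l4aos in asynchronous cells was above mitosis in 3 of 3 pairs of CCNA-GFP and below it in 3 of 3 pairs of +IAA. At 60, 90 and 120 min it was above mitosis in 2 of 2 CCNA-GFP pairs and below in 2 of 2 +IAA pairs. At 60 and 120 min it was also above mitosis in 2 of 2 −IAA pairs and below in 2 of 2 +IAA pairs. These single stages were not tested against each other between the IAA arms, and over the windows 50–60 and 90–120 min the IAA difference minus that in mitosis was −0.18 and −0.42 for Epb41l4aos, neither called by limma. With libraries scaled to the same sum, Epb41l4aos in CCNA-GFP was itself below mitosis at 50–60 min (−0.29) and 90–120 min (−0.27), and so was −IAA (−0.80 and −0.69), all called by limma. Snhg6 at 20 min was above mitosis in 2 of 2 CCNA-GFP pairs and below in 2 of 2 +IAA pairs, and this difference was not tested.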

How the results depend on the processing

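Over 27 comparisons the count of members called, in either direction together, stayed within 1.5 times its main value in 224 of 254 alternatives. Such a count can stay while members turn direction, as Neat1 and Epb41l4aos did at 50–60 min in CCNA-GFP with the same sum. Single differences of Gas5, Snhg6, Neat1 and Epb41l4aos stayed called in the same direction, or stayed uncalled, in 935 of 1016. Among differences called before or after the change of setting, the direction turned in 18, all with libraries scaled to the same sum. There Neat1 was at −0.31, −0.59 and −0.77 (40, 50–60 and 90–120 min against mitosis) in CCNA-GFP, −0.28, −0.43 and −0.17 in −IAA and −0.44, −0.58 and −0.43 in +IAA. In −IAA it was at 0.25 from 50–60 to 90–120 min and −0.02 for 50–60 min against asynchronous cells. Epb41l4aos was at −0.05, −0.29 and −0.27 in CCNA-GFP and −0.80 at 50–60 min in −IAA. Against asynchronous cells the 50–60 min value was −0.42 for Epb41l4aos and −0.51 for Snhg6 in CCNA-GFP, and −0.24 for Epb41l4aos in +IAA. The sums themselves rise from mitosis to 60 min, so this scaling lowers the values at 60 min relative to mitosis.

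Shares in parentheses are those of all genes called, in either direction, under the same setting. Without the replicate block 3 members were called at 50–60 (79%) and 3 at 90–120 min (86.9%) in CCNA-GFP, and in +IAA 2 in asynchronous cells (19.1%), 0 from 50–60 to 90–120 min (51.8%) and 1 for 50–60 min against asynchronous cells (72.7%). With the replicate block 1 member, Epb41l4aos, was called between the IAA arms at 90–120 min (2.63%) and 1 in asynchronous cells (2.43%), and the block changed no other count of members between the arms. Scaling to the same sum gave 4, 3 and 1 for 50–60 min against asynchronous cells in CCNA-GFP (73.6%), −IAA (77.2%) and +IAA (77.8%), lower except Neat1 in CCNA-GFP, and 1 and 0 from 50–60 to 90–120 min in −IAA (67.4%) and +IAA (68.1%). Removing each library's factor gave 1 at 20–30 min (4.91%) and 1 from 50–60 to 90–120 min (35%) in CCNA-GFP, 3 for 50–60 min against asynchronous cells in −IAA (77.6%) and 2 in asynchronous +IAA (69.3%). The 60 min libraries alone gave 1 for 50–60 min against asynchronous cells in +IAA (80.5%). Shares of all genes are not given here for leaving out 1 replicate, so its counts cannot be set against them. Leaving out 1 replicate gave 0 to 3 at 20–30 min, 0 to 2 from 50–60 to 90–120 min and 1 to 2 for 50–60 min against asynchronous cells in CCNA-GFP, 1 to 4 at 40 min and 1 to 3 for 50–60 min against asynchronous cells in −IAA, 0 to 3 and 1 to 3 for the last 2 comparisons in +IAA, and 0 to 1 between the arms at 50–60 min. The cause of these shifts was not tested. With 2 libraries at most post-mitotic stages and depth unknown, small changes of Snhg6 and of the sparse Snhg5 and Snhg12 could not be resolved.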
